A study of Arabidopsis thaliana with 12 samples.

Results

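The response of Arabidopsis thaliana seedlings to trifluoperazine (TFP) was measured against the solvent dimethyl sulfoxide (DMSO) on 3 of the 12 arrays of the study. These were all the arrays whose title names TFP and DMSO, and they were numbered 1 to 3 by the labels. Each array compared total RNA of seedlings treated with TFP for 1 h with total RNA of seedlings given DMSO, 1 RNA per dye, on printed cDNA clones. The other 9 arrays, 3 per experiment, compared W7 with DMSO, W7 with W7 after a lanthanum (La) pretreatment, and W7 after La with DMSO after La. Seedlings in the TFP experiment had no La. The sources used here give no dose of TFP and no ecotype, genotype or age of the seedlings. Whole seedlings were extracted, so no organ or cell type was separated.

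Calmodulin is a small protein that binds calcium ions and then binds to and alters target proteins such as kinases, phosphatases, ion pumps and transcription factors. In plants, touch, cold, salt and pathogens raise free calcium in the cytosol, and calmodulin is among the sensors of that signal. TFP, a phenothiazine, and W7, a naphthalenesulfonamide, bind calcium-loaded calmodulin and keep it from its targets. Both are used as calmodulin antagonists in plant and animal cells, and neither is specific for calmodulin alone. Lanthanum ions block calcium channels in the plasma membrane.

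The items printed on the arrays were expressed sequence tags (ESTs), clones that each carry part of a transcript. The arrays held 11952 EST spots, which stood for 11926 clones, and 9180 clones were bright enough on the arrays of all 4 experiments to be fitted. The files name the clones by their EST accession alone. A supplied table of 38312 genes matched 0 of these names, so no clone could be assigned to a gene, a chromosome or a function here. Several clones can stand for 1 gene, and a count of clones is therefore not a count of genes. For the same reason the tissue could not be checked against marker genes.

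A ratio is given on the log2 scale as TFP over DMSO, so that 1 stands for doubled signal in the TFP channel. The value of an array is its own normalized ratio. The fitted ratio is the estimate from a limma fit to 11 arrays, which also estimates for each clone a dye effect shared by all experiments. A clone was called when its Benjamini-Hochberg adjusted p over the 9180 clones was under 0.05, and only called clones are said to have risen or fallen.

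On the 3 arrays, 93.1% to 94.4% of EST spots were brighter in at least 1 channel than 95% of the blanks. Median EST intensity was 753 to 1506 scanner units in the DMSO channel and 784 to 1326 in the TFP channel, both brightest on array 2. The scanner files under W7 arrays 1 and 2 held identical values and were counted as 1 array, so the fit used 11 of the 12 arrays and W7 had n = 2. The number of arrays limits the precision of all values given here.

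After 1 h of TFP, most of the transcripts that changed were more abundant. TFP raised 208 clones, 2.27% of those tested, and lowered 15, 0.163% of those tested. Together the 223 called clones were 2.43% of those tested, and 93.3% of them rose. The rises were also larger than the falls. A fitted ratio of 3 or more was found for 4 clones, one of 2 to 3 for 33, one of 1 to 2 for 158 and one under 1 for 13. The smallest rise called was 0.84. No fall reached -2: 9 of the 15 lay at -1 or below, and the one nearest 0 was -0.85. With no adjustment of p, 687 clones (7.48%) were higher and 353 (3.85%) lower at p under 0.05, a less uneven split. With the authors' deposited ratios in place of the scanner values, 273 clones rose and 62 fell, so that 81.5% of the calls were rises. The plot of fitted ratio against brightness shows this imbalance.

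**Figure D1:**
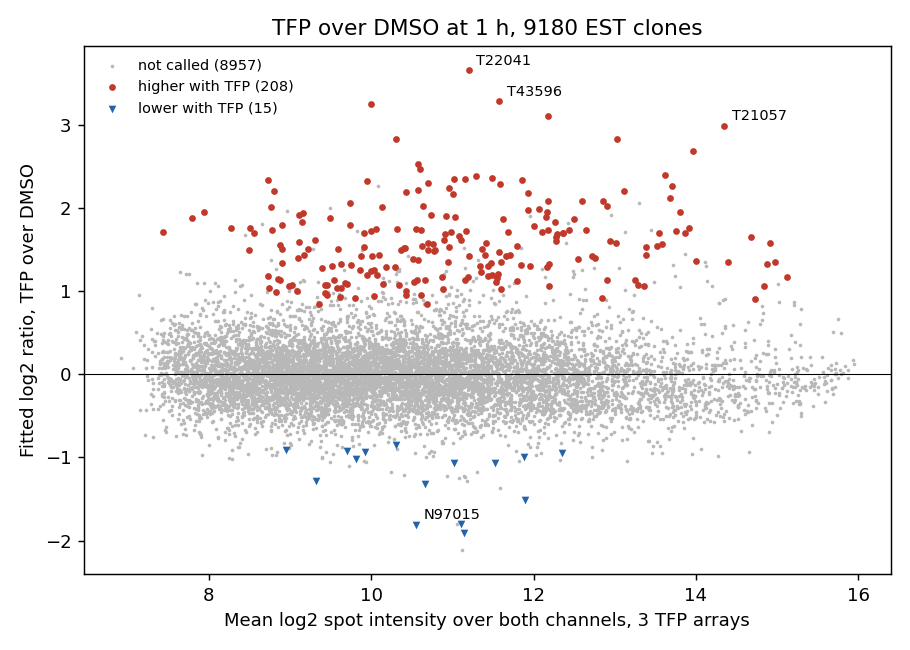
Fitted log2 ratio of TFP over DMSO (vertical axis) against the mean log2 intensity of the spot over both channels and 3 arrays (horizontal axis) for 9180 EST clones, 1 point per clone. The 208 clones that rose (red circles) reach 3.66 and occur at all but the lowest intensities. The 15 that fell (blue triangles) stay above -2.

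T22041 showed the highest ratio. It stood at 3.29, 3.68 and 3.90 on arrays 1, 2 and 3. All 3 arrays were therefore far above 0, and array 3, with the dyes exchanged, was the highest of them. The DMSO channel gave 492, 1508 and 442 scanner units and the TFP channel 4789, 16074 and 6540, so the spot was measured well in both. The fitted ratio was 3.66 (SE 0.19, n = 3), which is a 12.7-fold rise (limma, adjusted p = 2.08e-06).

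T43596 had ratios of 3.35, 3.94 and 3.00 on the 3 arrays, and rose 9.78-fold. Its fitted ratio was 3.29 (SE 0.20, limma adjusted p = 6.70e-06). Here array 3 was the lowest of the 3. H76238 stood at 3.72, 3.59 and 2.85, again lowest on array 3, with a fitted ratio of 3.26 (SE 0.28). N65907 stood at 3.32, 2.74 and 3.39, lowest on array 2, with a fitted ratio of 3.11 (SE 0.24). Each of these 4 clones kept its call under all 25 other settings tried, and the highest adjusted p among those settings was 0.0023, 0.0061, 0.027 and 0.019 respectively.

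The other 11 of the 15 highest clones had fitted ratios between 2.35 and 2.99. T21057 stood at 3.61, 2.72 and 2.88 on arrays 1, 2 and 3, and rose 7.96-fold (limma, adjusted p = 7.36e-05). Its TFP channel was saturated on array 2, where the measured ratio is the lowest of the 3, so its fold can be understated. H37034 stood at 3.15, 3.06 and 2.54 and T46733 at 3.59, 2.16 and 2.88. These 2 clones rose by almost the same fold, 7.16 and 7.13, but the arrays of T46733 were spread over a wider range.

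N38224 reached 2.39, 2.69 and 2.89 and rose 6.45-fold. T43246 was at 2.93, 2.54 and 2.52 and H76724 at 2.21, 2.76 and 2.23. In each of these, all 3 arrays lay above 2. R29923 and T22510 had the tightest arrays among the 15: 2.57, 2.41 and 2.36 for R29923 (SD 0.11) and 2.30, 2.21 and 2.55 for T22510 (SD 0.18). R65072, at 2.1, 2.98 and 2.16, was the lowest of the 15 by its fitted ratio of 2.35 (SE 0.25).

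Among the 15 highest, 2 calls were lost without array 3, where both TFP arrays left carried TFP in Cy5. T88150 stood at 2.43, 1.77 and 3.02, with a fitted ratio of 2.48 (SE 0.34). Without array 3 its ratio was 2.06 (SE 0.54) and missed the threshold (limma, adjusted p = 0.159). T42435 stood at 2.38, 2.94 and 2.06, with a fitted ratio of 2.37 (SE 0.32). Without array 3 its ratio was 2.40 (SE 0.52) and missed the threshold as well (adjusted p = 0.0735). The ratio of T42435 was thus not lower without array 3, but its SE was larger. The other 13 kept their call under all settings tried. The plot of the extreme clones array by array shows how closely the 3 arrays of each clone lie together.

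**Figure D2:**
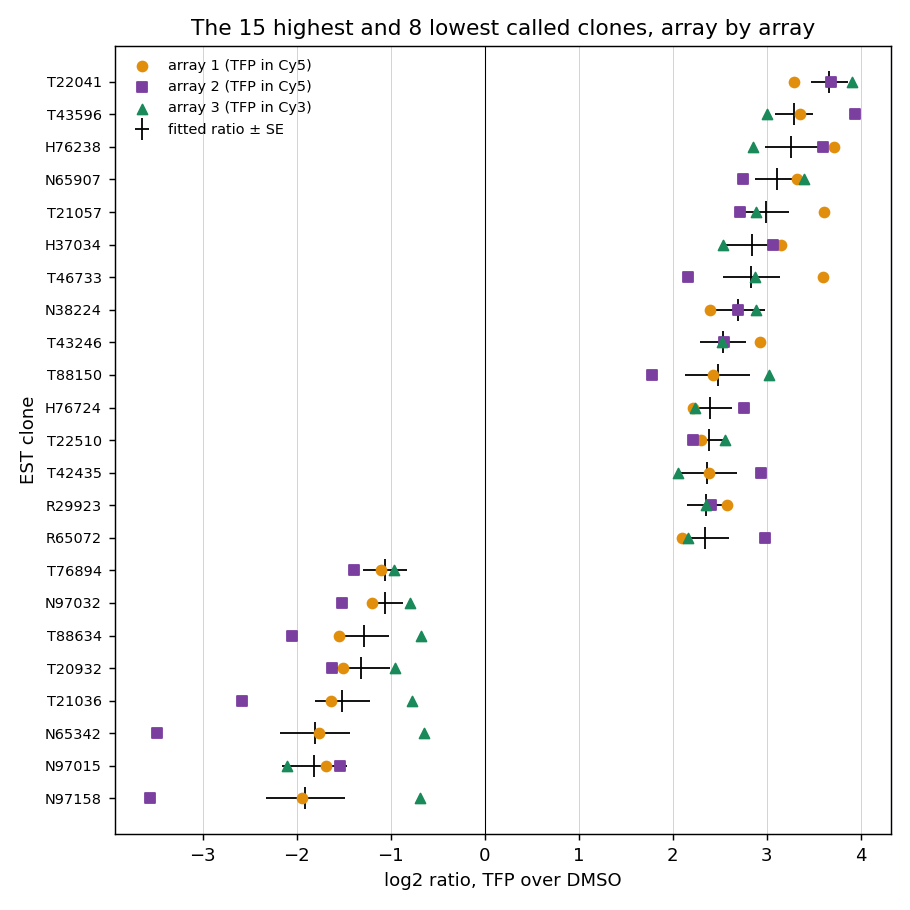
Log2 ratio of TFP over DMSO (horizontal axis) on array 1 (circles), array 2 (squares) and array 3 (triangles) for the 15 called clones with the highest and the 8 with the lowest fitted ratio (vertical axis). Black bars give the fitted ratio ± SE. All points of the 15 lie at 1.77 or above, whereas array 2 reaches -3.56 and array 3 stays at -0.69 for N97158.

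The 15 clones that fell had smaller ratios, and several of them differed widely between arrays. N97158 stood at -1.95, -3.56 and -0.69 on arrays 1, 2 and 3, and N65342 at -1.77, -3.48 and -0.65. Both clones were lowest on array 2 and nearest 0 on array 3. Their fitted ratios were -1.91 (SE 0.42, limma adjusted p = 0.0329) and -1.81 (SE 0.37, adjusted p = 0.0232), which are 3.75-fold and 3.50-fold lower. With 1 TFP array left out, the ratio of N97158 ran from -2.83 to -1.32 and that of N65342 from -2.65 to -1.21. N97015 stood at -1.69, -1.54 and -2.1, with a fitted ratio of -1.81 (SE 0.34, adjusted p = 0.0145). It was the only clone of the 9180 with a ratio of -1 or below on all 3 arrays, whereas 121 clones were at 1 or above on all 3.

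Of the other 5 clones among the 8 lowest, T21036 stood at -1.63, -2.58 and -0.77 and T88634 at -1.55, -2.05 and -0.68. T20932 stood at -1.51, -1.63 and -0.95 and N97032 at -1.20, -1.52 and -0.79. In all of these, array 2 was the lowest and array 3 the nearest to 0. T76894 had the same order, at -1.1, -1.39 and -0.97. None of the 8 kept its call under all settings tried. N97032 came closest: its fitted ratio of -1.06 (SE 0.19, limma adjusted p = 0.0111) missed the threshold only without array 2 (adjusted p = 0.0799) and without array 3 (0.271). N97158 missed it without any 1 of the 3 TFP arrays (adjusted p = 0.0793, 0.217 and 0.0618 without arrays 1, 2 and 3), as did N97015 (0.0749, 0.0521 and 0.380), T21036 (0.0551, 0.132 and 0.126), T20932 (0.167, 0.204 and 0.246), T88634 (0.0956, 0.177 and 0.200) and T76894 (0.0822, 0.15 and 0.542). N65342 missed it without array 1 (0.0554) and without array 2 (0.130).

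The called clones with the brightest spots rose modestly. Brightness ranks spots and does not compare transcripts. W43242 stood at 0.86, 1.30 and 1.22, T76836 at 1.67, 1.14 and 1.33, and W43547 at 0.89, 0.73 and 1.34. T76435 stood at 1.66, 2.1 and 0.49 and AA042588 at 1.37, 2.91 and 0.67, so that array 3 was well below the others for these 2. The TFP channel was saturated on 1 array for W43242, T76836 and AA042588 and on 2 for W43547, and on those arrays the measured ratio can be too low. Of the 223 called clones, 8 were saturated in a channel on at least 1 TFP array, beside 36 of all 9180 clones tested. The called clones thus held a larger share of saturated spots. None of the called clones was saturated in the same channel on all 3 arrays. Without array 1, without array 2 or without array 3 of TFP, the calls of W43242 (limma adjusted p = 0.125, 0.245 and 0.383) and W43547 (0.130, 0.0914 and 0.381) were lost, while those of AA042588 (0.0684 and 0.154) and T76435 (0.113 and 0.157) were lost without array 1 or 2 and that of T76836 (0.123 and 0.331) without array 1 or 3. Of the 25 other settings, 12 ended the call of W43242 and 7 that of W43547. T76836 also missed the threshold with median centring in place of loess (adjusted p = 0.209), as did T76435 (0.0516), which print-tip loess left at the threshold (0.050).

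At the edge of the threshold, N96333 stood at 0.36, 0.73 and 1.69 and N38369 at -0.85, -0.84 and -0.89. These were the last 2 clones called in limma, with adjusted p = 0.0492 and 0.0496. The next 2 clones, N37557 at 0.99, 1.99 and 0.56 and T41817 at 1.63, 0.56 and 1.04, both had an adjusted p of 0.0502. The arrays of N38369 differed by less than 0.05 and those of N37557 by more than 1.4, so the threshold did not separate clones by the spread of their arrays alone. Of the 121 clones with a ratio of 1 or above on all 3 arrays, 5 were not called: H37046 (1.69, 2.20 and 1.97), T43007 (2.09, 2.97 and 1.52), T43774 (1.34, 1.14 and 1.61), T44253 (1.68, 3.12 and 1.22) and W43256 (1.57, 2.90 and 1.07). They were singled out after their values had been seen. Their adjusted p ran from 0.0611 for H37046 to 0.211 for T43774.

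Repeated spots gave a check within an array for a few clones. The arrays carried 26 clones more than once, and for 10 of these more than 1 spot was bright enough to be kept. The range between kept spots of 1 clone on 1 array had a median of 0.76, and reached 3.22. Of the called clones, T44899 and T21358 had such repeats. For T44899 the first spot read 1.00, 1.5 and 0.90 and the second 1.66, 2.28 and 2.21 on arrays 1, 2 and 3. Both spots were above 0 on every array, the second always higher. The fitted ratio of T44899 was 1.61 (SE 0.23, limma adjusted p = 0.00239), and it missed the threshold without TFP array 3 (0.0673).

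For T21358 the first spot read 0.97, -0.79 and 0.48 and the second 2.54, 2.42 and 2.56. The second spot was steady and high, whereas the first changed sign. In the TFP channel the first spot gave 540, 448 and 234 scanner units and the second 13671, 21083 and 10108, so the spots of this name differed in brightness as well as in ratio. Averaging them gave T21358 a fitted ratio of 1.38 (SE 0.32, limma adjusted p = 0.0445). The call was lost without TFP array 1, 2 or 3 (adjusted p = 0.236, 0.0607 and 0.496). The authors' deposited table gives 1 value to all spots of a repeated clone, for all 26 such clones. Its log2 ratios for T21358 were 2.44, 2.06 and 2.32, close to the brighter spot. With the deposited ratios T21358 had a fitted value of 2.30.

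The 3 arrays were not alike in spread. Over the 9180 clones, the SD of the log2 ratio was 0.52, 0.79 and 0.48 on arrays 1, 2 and 3. Ratios of 1 or above were found for 349, 754 and 301 clones, and ratios below -1 for 181, 790 and 64. Array 2 thus held about as many low as high ratios, while array 3 held far more high than low ones. Across clones, Pearson's r was 0.45 between arrays 1 and 2, 0.36 between arrays 1 and 3, and 0.21 between arrays 2 and 3. By rank the arrays were less alike, with a Spearman's rho of 0.35, 0.16 and 0.10 for the same pairs (n = 9180 clones). The clones share each array's hybridization and dyes and are not independent.

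The called clones were nevertheless on the same side of 0 on every array. All 208 clones that rose had 3 of 3 arrays above 0, as did 17.7% of all clones tested. All 15 that fell had 3 of 3 below 0, as did 15.5% of all clones tested. The median ratio of the clones that rose was 1.61, 1.63 and 1.35 on arrays 1, 2 and 3, and 185, 177 and 156 of them stood at 1 or above. The calls were made from these same arrays, so these values describe the called clones and are no further evidence for them. The SD of a clone over the 3 arrays had a median of 0.44 among those that rose, 0.36 among those that fell and 0.39 over all clones tested.

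TFP RNA carried the dye Cy5 on arrays 1 and 2 and Cy3 on array 3. Arrays 1 and 2 also shared an image folder in the scanner headers and array 3 lay in another, so dye orientation, image folder and the identity of array 3 cannot be told apart within this experiment. Among the clones that rose, array 3 was below both other arrays for 101, between them for 49 and above both for 58. The median gap between array 3 and the mean of arrays 1 and 2 was -0.20 for these clones and 0.02 over all clones tested. Among the clones that fell, array 3 was nearer to 0 than both other arrays for 11 of 15, with a median gap of 0.51. The 4 that were instead lowest on array 3 were N97015, N37919, N38369 and T76739, of which N37919 and T76739 are named here after their values had been seen. For the dye effect itself limma made 0 calls, and 609 clones had p under 0.05 before adjustment.

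A few calls joined arrays that differed strongly. N96255 stood at 0.23 and 0.28 on arrays 1 and 2 and at 2.91 on array 3. Its DMSO channel gave 18581, 31935 and 2685 scanner units and its TFP channel 22680, 28774 and 18777. The high ratio on array 3 therefore went with a low DMSO channel there. The fitted ratio of 1.37 (SE 0.32, limma adjusted p = 0.0434) fell to 0.31 without array 3 (adjusted p = 0.778). The call of N96255 was also lost without the dye term (0.176), with median centring (0.125), and without TFP array 1 (0.0778) or 2 (0.0820).

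H76914 and N65081 differed the other way. H76914 stood at 1.81, 3.51 and 0.37, and N65081 at 2.52, 3.18 and 0.63. Both were lowest on array 3. Their fitted ratios were 1.70 (SE 0.36, limma adjusted p = 0.0257) and 1.96 (SE 0.40, adjusted p = 0.0218). The call was lost without array 1 or array 2 for H76914 (0.0606 and 0.123) and for N65081 (0.113 and 0.162). With 1 TFP array left out the fitted ratio ran from 1.09 to 2.62 for H76914 and from 1.58 to 3.05 for N65081. The TFP channel of N65081 was saturated on array 2, where its ratio can be too low, and print-tip loess also ended its call (0.0515). The plot of array 3 against the mean of arrays 1 and 2 places these clones among the rest.

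**Figure D3:**
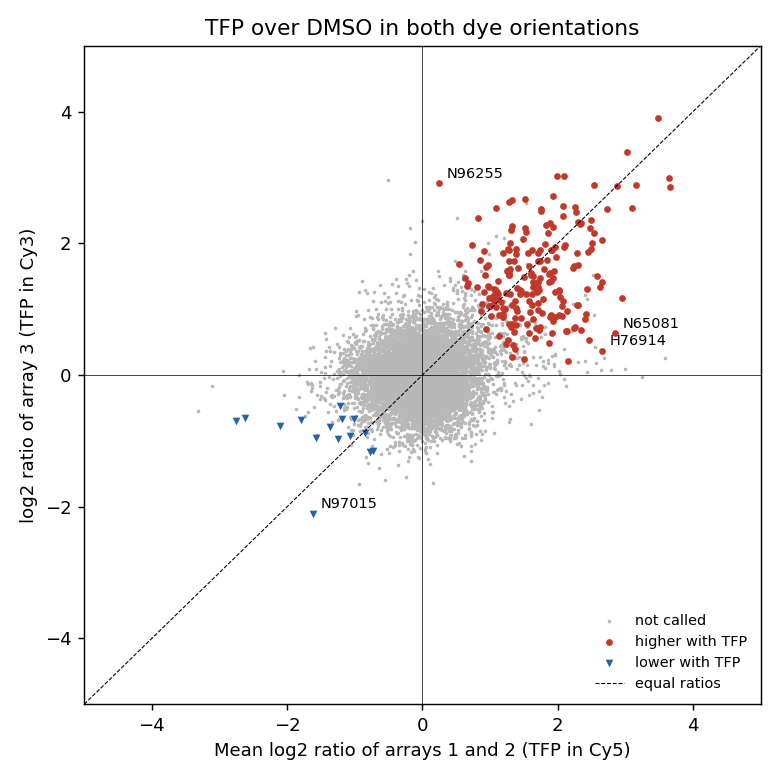
Log2 ratio of TFP over DMSO on array 3, with TFP in Cy3 (vertical axis), against the mean of arrays 1 and 2, with TFP in Cy5 (horizontal axis), for 9180 clones. The dashed line marks equal ratios. The 208 clones that rose (red) all lie above and to the right of 0, 101 of them lower on array 3 than on both others, and N96255 stands apart at 0.25 and 2.91.

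The count of calls depended on each of the 3 arrays. Without array 1, 89 clones rose and 5 fell. Without array 2, 111 rose and 2 fell, and without array 3, 64 rose and 6 fell. In the fit without array 3, both TFP arrays left carried TFP in Cy5. Each of these counts is lower than the reported one by more than 1.5 times. Of the 208 clones, 29 were called again in all 3 of these fits, 46 in 2, 61 in 1 and 72 in none. Of the 15 that fell, 2 were called again in 1 of the fits and 13 in none. All 223 clones kept their direction in all 3 fits. Arrays of the other experiments, which enter through the shared spread and dye effect, moved the count of falls as well: leaving out array 2 or 3 of W7 against La plus W7 gave 26 and 9, and leaving out array 1, 2 or 3 of La plus W7 gave 6, 5 and 7. The plot of calls by setting gives these counts side by side.

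**Figure D4:**
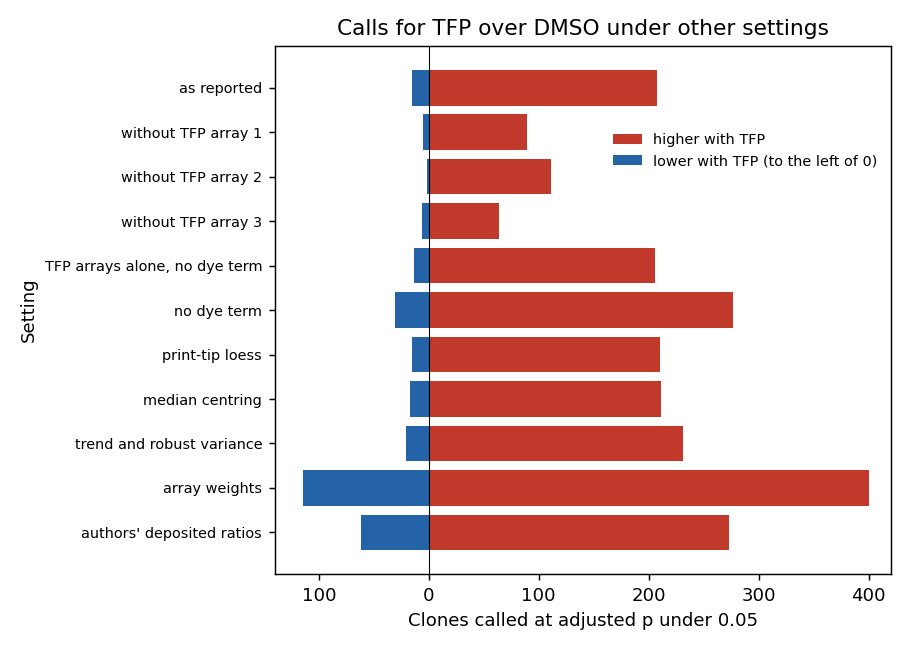
Number of clones called at an adjusted p under 0.05 as higher with TFP (red, to the right of 0) or lower (blue, to the left of 0) under each setting (vertical axis). The reported 208 and 15 fell to between 64 and 111 and between 2 and 6 without 1 TFP array, and rose to 400 and 114 with array weights.

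The 29 clones called in all 3 of these fits had fitted ratios from 1.29 to 3.66, with a median of 2.30. They include 13 of the 15 highest clones. Among the rest were N97207 at 2.32 (SE 0.24), R30034 at 2.30 (SE 0.21) and N96062, the lowest, at 1.29 (SE 0.20), which were named after their values had been seen.

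For a clone that rises from a very low level the ratio is only a bound. The TFP channel exceeded the blanks on all 3 arrays for all 208 clones that rose. The DMSO channel did so on 3 arrays for 193 of them, on 2 for 10, on 1 for 3 and on none for 2. The clones with no array above the blanks in DMSO were N97159 (2.01, 2.82 and 0.93) and T43911 (2.58, 1.12 and 1.75), both named after their values had been seen. Against the lowest signal that counted as above the blanks, N97159 was at least 1.93-fold higher with TFP and T43911 at least 2.38-fold higher. These bounds were not tested. The calls rest on fitted ratios of 1.71 for N97159 (limma, adjusted p = 0.0195) and 1.89 for T43911 (adjusted p = 0.00631). Those ratios use the DMSO signal that was not above the blanks. Among the 15 clones that fell, T21726 (-0.98, -1.03 and -0.67), also named after its values had been seen, exceeded the blanks in the TFP channel on 2 arrays and the other 14 on 3.

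Clones that rose were found in every quartile of DMSO-channel brightness. When the 9180 clones were ranked by it and split into quartiles of 2295, 49, 61, 55 and 43 clones rose from the dimmest to the brightest quartile, which is between 1.87% and 2.66% of each. The clones that fell numbered 0, 3, 5 and 7. Ranked by the mean of both channels, the share called in either direction went from 1.00% in the dimmest quartile to 3.44% in the brightest. Each ranking uses a channel that is also part of the ratio, so a clone's ratio moves its own rank: a low DMSO signal lowers it in the first, and a high TFP signal raises it in the second.

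The clones that rose came from every EST accession series on the arrays. In the largest, the T series, 90 of 3583 clones rose (2.51%) and 7 fell. In the N series 52 of 2222 rose (2.34%) and 7 fell, in the R series 30 of 978 rose (3.07%), and in the H series 18 of 1028 rose (1.75%) and 1 fell. In the W series 12 of 527 rose (2.28%), and in the AA series 6 of 842 (0.713%), the lowest share. The spots lay in 32 print blocks, which held 0 to 14 clones that rose, with a median of 7. These counts are not shares, since a block held between 53 and 360 of the clones tested. The block with 14 rises held 239 of them and the block with 0 held 101. The 15 clones that fell were spread over 11 blocks.

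The same clones were then read in the other 3 experiments. TFP and W7 were both measured against DMSO, and the labels do not say whether the DMSO RNA was shared, so their values are only set side by side. For W7 over DMSO 2.71% of clones were called, and for W7 over La plus W7 0.436%. The 37 clones with a fitted TFP ratio of 2 or more had a median of 2.30 for TFP and of 2.87 for W7. For the 158 clones between 1 and 2 these medians were 1.48 and 1.66, for the 13 under 1 they were 0.94 and 1.07, and for the 15 that fell they were -1.06 and -1.07. Over the 8957 clones not called for TFP they were -0.02 and -0.05.

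On the arrays of W7 over La plus W7, where seedlings with W7 alone were compared with seedlings given La before W7, the clones that TFP raised most also stood highest. The median fitted ratio there was 1.48 for the 37 clones, 0.81 for the 158 and 0.77 for the 13, and -0.96 for the 15 that fell. It was -0.01 over the clones not called for TFP. Fitted ratios above 0 were found for 35 of the 37, 141 of the 158 and 11 of the 13, and for none of the 15. Of the 8957 clones not called for TFP, 4386 had a ratio above 0. Calls in limma were made for 11, 15 and 1 of the 3 sets of raised clones, and for 13 of the 8957. In La plus W7 over La plus DMSO, where both sides had La, the medians were 0.44, 0.22, 0.07 and -0.13. These experiments share the dye effect and the spread of the fit with TFP, so their values are not fully independent of the calls. All 3 arrays of W7 over La plus W7 carried the W7 RNA without La in Cy3. The fitted ratio there takes in the whole dye term, which the TFP arrays helped to estimate. It lay outside the array values for T43596 (arrays 2.37, 2.00 and 2.49, fitted 2.71). For T88634 (arrays -0.04, 0.97 and -0.35) the fitted ratio of -0.22 owes its sign to a dye term of -0.41. The counts above 0 can thus depend in part on the TFP arrays.

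The ratios of single clones are given next without a test between clones. With La on both sides limma called 0 of 9180 clones (0%), with 220 at p under 0.05 before adjustment, so a missed threshold there holds for all clones. T22510 had a ratio of 2.38 (SE 0.19) for TFP, 2.87 (SE 0.27) for W7, 2.41 (SE 0.23, limma adjusted p = 0.00067) for W7 over La plus W7 and 0.29 (SE 0.19, adjusted p = 1.00) with La on both sides. T22041 had 3.66, 4.43, 2.97 (SE 0.24, adjusted p = 0.000221) and 0.74 (SE 0.19, adjusted p = 1.00) in the same order. Both were among the clones called for W7 over La plus W7.

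R65072 had 2.35 for TFP, 2.83 for W7, 0.68 (SE 0.30, limma adjusted p = 0.441) for W7 over La plus W7 and 0.32 with La on both sides. W43242 had 1.17, 2.23, -0.28 (SE 0.33, adjusted p = 0.786) and 0.04. Like most clones, these 2 were not called for W7 over La plus W7. Among the lowest clones, N97158 stood at -1.91, -2.65, -1.63 and -0.15, and T88634 at -1.29, -0.91, -0.22 and 0.06. Of these, W7 was called for N97158 (adjusted p = 0.0328) and not for T88634 (0.296). The plot of the 4 experiments shows these clones together.

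**Figure D5:**
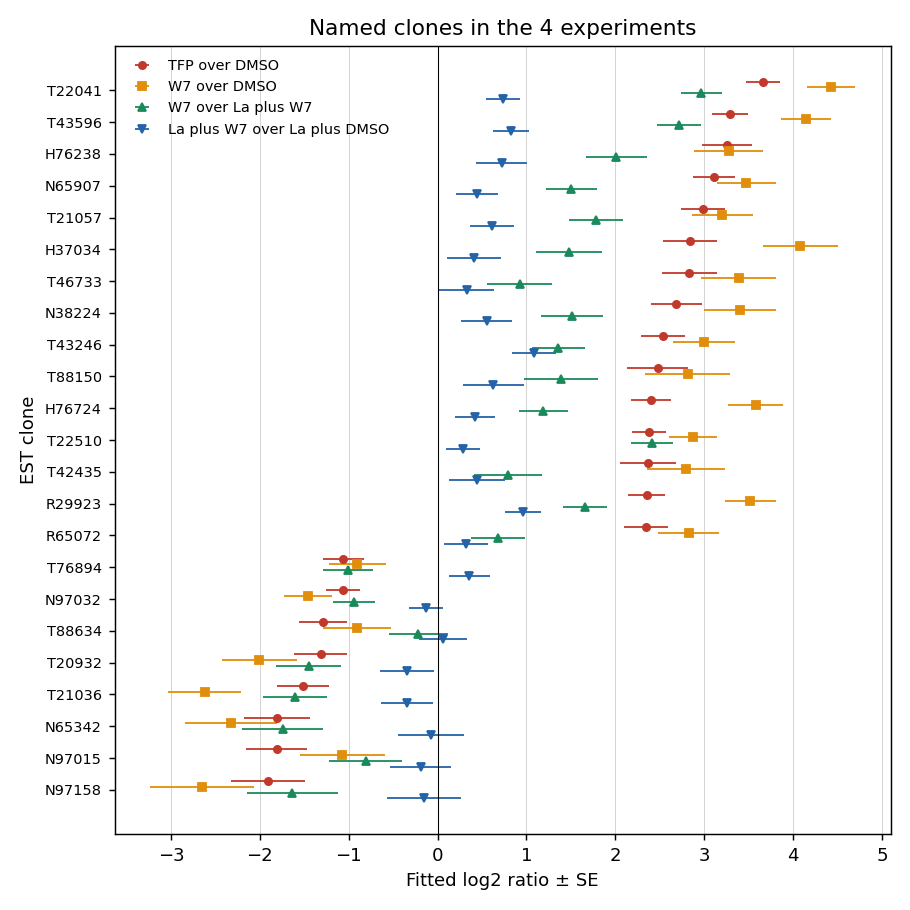
Fitted log2 ratio ± SE (horizontal axis) for TFP over DMSO (circles), W7 over DMSO (squares), W7 over La plus W7 (upward triangles) and La plus W7 over La plus DMSO (downward triangles) in the 15 highest and 8 lowest TFP clones (vertical axis). The squares and upward triangles come from arrays with the test RNA in Cy3 alone. They take in the whole dye term and can lie outside the array values. With La on both sides the ratios lie between -0.35 and 1.09, nearer to 0 than the TFP ratios in every clone drawn. The clones were chosen for their extreme TFP ratios, so this can follow in part from the choice.

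Whether TFP and W7 acted with unequal strength was tested clone by clone in the same fit. Limma called 0 of 9180 clones, the smallest adjusted p was 1.00, and 210 clones (2.29%) had p under 0.05 before adjustment. The 95% interval of a clone's difference extended 0.96 to each side of its own estimate at the median, beside 0.53 for the TFP ratio alone. With intervals this wide, a missed threshold does not show that the 2 responses were equal. Among the 208 clones that TFP raised, TFP minus W7 ran from -1.49 to 1.19 with a median of -0.22. An unadjusted p under 0.05 was found for 10 of them, all with the higher ratio for W7.

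Both W7 arrays in the fit carried the W7 RNA in Cy3, so a fitted W7 ratio takes in the whole dye term and can lie outside the values of its arrays. A fitted difference is therefore not the difference of the array values printed beside it. The differences furthest below 0, where the W7 ratio is higher, were those of T42340, T43145 and H37034. T42340 read 2.52, 1.46 and 3.03 on the TFP arrays and 3.66 and 4.03 on W7 arrays 1 and 3, a fitted difference of -1.49 with a 95% interval from -2.74 to -0.23. Its array means differed by -1.51. T43145 read 2.09, 2.40 and 1.65 for TFP and 2.50 and 3.57 for W7, a fitted difference of -1.28 (-2.30 to -0.26), beside -0.99 between array means. H37034 read 3.07 and 4.63 for W7, and its fitted difference was -1.24 (-2.44 to -0.05), beside -0.93 between array means. W7 array 1 was within the range of the TFP arrays for H37034 and above it for T42340 and T43145. W7 array 2, known only from the authors' deposited table, read 2.86 for T42340, 2.32 for T43145 and 2.70 for H37034, within the range of that clone's TFP arrays each time. Without TFP array 3, the TFP ratio of T42340 was 1.51 and missed the threshold (limma, adjusted p = 0.173), as did that of T43145 (0.0519).

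The differences furthest above 0 were those of N96503, T21036 and R83976, of which T21036 is a fall with the lower fitted ratio for W7. N96503 read 1.1, 1.53 and 2.20 for TFP and 0.39 and 1.14 for W7, a fitted difference of 1.19 (95% interval -0.14 to 2.52), beside 0.84 between array means. R83976 read 2.20, 1.72 and 1.26 for TFP and 0.65 and 0.90 for W7, a fitted difference of 1.1 (-0.11 to 2.30), beside 0.95 between array means. These W7 arrays lay below all TFP arrays for R83976 and overlapped them for N96503. In the deposited table, W7 array 2 read 0.32 for R83976 and 0.70 for N96503, each below all TFP arrays of that clone. The TFP call of N96503 was lost without TFP array 1, 2 or 3 (limma, adjusted p = 0.0608, 0.101 and 0.442), and that of R83976 without array 1 (0.0768) or 2 (0.050, just past the threshold). T21036 had a fitted ratio of -1.51 for TFP and read -1.82 and -2.53 on the W7 arrays, both within the range of its TFP arrays. The deposited value of W7 array 2, -1.74, was within that range too. The fitted difference of T21036 was 1.1 (-0.06 to 2.27), beside 0.51 between array means. No dose of TFP or W7 is given in the sources used here, so these values are not compared at matched doses.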

How the data were processed

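The 3 TFP arrays and the other experiments' arrays were 2-colour cDNA arrays. The scanner files the authors deposited hold raw spot intensity and local background per channel, with no subtraction or normalization per the file headers. A table of 1 linear ratio per spot and array, made by the authors, was deposited as well. Its log2 values correlated with the ratios computed here at r = 0.997 to 0.999 across clones on the TFP arrays, its medians were 0.97 to 1.00, and the sources used here do not say how it was normalized. The direction of each ratio came from the labelled dyes. Labels give the arrays of an experiment as independent biological repeats.

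Spots without an EST name (323 blanks, 12 named N/A, 1 unnamed) were dropped. Intensities were corrected with normexp (offset 50) and normalized by loess within each array, with those spots at weight 0. A spot was kept if at least 1 channel was above the 95th percentile of blank intensities on at least 2 arrays of every experiment, and repeated spots were averaged. One limma 3.58.1 fit (R 4.3.3) over 11 arrays held 1 ratio for each experiment and 1 dye term common to all, with 6 residual and 6.14 prior degrees of freedom. It was planned for 12 arrays, before the identical W7 scanner files were found. P-values were adjusted by Benjamini-Hochberg over 9180 clones. On simulated data for TFP over DMSO, 100 of the 9180 clones were changed at each size. The fit recovered 59% of changes of 1 log2 unit and 100% of changes of 2. It also made 17 false calls. These were a larger share of the simulated calls than the adjusted p threshold allows for.

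The clones named were, among those called, the 15 highest, the 8 lowest, the 5 brightest, those spotted more than once, the 3 with the widest gap between array 3 and the others and the 3 with the widest difference from W7 each way, plus the last 2 called and the first 2 not called. Experiments, lists and rules were chosen with earlier results of these data known. Gene lists were not applied, since no clone matched a gene. The alternatives tried were other normalizations, filters, variance models, dye terms and blocks, the deposited ratios, and each array left out in turn.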

Additional observations from a re-analysis of the deposited data

Results flagged for a closer look

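Spots outside the comparisons also carried signal. Of the 13 spots named N/A or left unnamed, 11 exceeded the blanks in at least 1 channel on all 3 TFP arrays. Their log2 ratios of TFP over DMSO ran from -1.38 to 0.95, and 0 of the 13 were at least 1 in size with the same sign on all 3 arrays. The sources used here do not name what is printed there, and these spots were not fitted. No group of arrays was large enough for a search for single outlying arrays.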

How the results depend on the processing

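The direction of the 41 clones named by rule held under all alternatives run. The clones named after their values had been seen were not run under them, except that each TFP array was left out for the called ones. Of the former, 13 of the 39 called kept their call under all alternatives. The 208 rises became 400 with array weights and 64 to 111 when 1 TFP array was left out (64 to 246 over all arrays). The 15 falls became 62 with the deposited ratios, 31 without the dye term, 27 without background correction, 114 with array weights, and 2 to 26 when 1 array was left out. With array weights, TFP array 1 had a weight of 3.56, array 2 of 0.42 and array 3 of 0.82. The remaining alternatives gave 206 to 277 rises and 12 to 21 falls where not listed here. The cause of these changes was not tested. The 0 clones differing between TFP and W7 stayed at 0 under all 24 alternatives run for them.

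The replicate number as a block gave 134 rises and 2 falls. Same-numbered arrays of different experiments deviated together at r = -0.57 to 0.48 (15 pairs), and 1 of 11 arrays correlated best with its own number, so the numbers were not taken as pairs. The image folder as a random block, an alternative chosen after seeing the data, gave 215 rises and 17 falls. As a fixed block it was not run for the TFP counts and clones, because the dye orientation of the TFP arrays is fixed by the folder.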

Other observations

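Among the 223 called clones, 13 pairs had EST accession numbers at most 2 apart, which was looked for after the data had been seen. Over all 9180 clones there were 6420 such pairs, of which 296 held at least 1 called clone, and 53.5% of the 6420 had ratios of the same sign. Of the called clones, 93.3% rose. In 10 of the 13 pairs of called clones both clones changed in the same direction, as did T22041 (3.66) and T22042 (1.20), and N65729 (2.09) and N65731 (1.79). In 3 pairs they changed in opposite directions: N97158 (-1.91) and N97159 (1.71), T76738 (1.90) and T76739 (-0.996), and N38368 (1.09) and N38369 (-0.85). The sources used here do not say whether the clones of a pair stand for 1 gene.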
